A study of Mus musculus with 24 samples.

Results

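The 43 genes described here encode the DNA replication machinery. They were listed by name, by what their products do; the rule used no measured value, but the list was drawn up with earlier results of these data known. All 43 were found among the 26267 genes of the deposited table, and all 43 passed the filter on low values, which kept the 12628 genes with 10 or more normalised counts in 2 or more libraries. They were divided by role into origin licensing (6 genes), the MCM helicase ring (6), helicase activation (6), polymerases and primase (6), the sliding clamp with its loader, single-strand binding and fragment joining (10), nucleotide supply (5), and chromatin and histone mRNA (4).

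RNA with poly(A) tails was sequenced from LSK cells, the lineage-negative, Sca-1-positive and Kit-positive fraction of mouse bone marrow that contains blood stem cells and early progenitors. The mice carried both a Fancg knockout and an Mdm4 transgene (FancgKO_Mdm4Tg), the knockout alone (FancgKO), the transgene alone (Mdm4Tg) or neither (WT), and each genotype had received poly(I:C), an artificial double-stranded RNA that induces interferon, or the vehicle PBS. Poly(I:C) libraries numbered 2 for FancgKO_Mdm4Tg, 3 for FancgKO, 2 for Mdm4Tg and 3 for WT, and PBS libraries numbered 3, 4, 3 and 4 in the same order. The Fancg protein acts in the Fanconi anaemia pathway of DNA crosslink repair, and the Mdm4 protein inhibits p53. Strain, age, the transgene's promoter, and the dose and timing of poly(I:C) are not given in the sources used here. Nothing in the labels says that the samples of a group came from separate animals, so each p-value measures only the spread between these samples, which may be technical.

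Recovered reads ranged from 1697596 to 8229715 (median 4251220) in the 10 poly(I:C) libraries and from 807686 to 4801746 (median 1540399) in the 14 PBS libraries. Normalised counts of Mdm4 were 5024 to 7105 in the 10 transgenic libraries and 750.9 to 1293 in the 14 others. Fancg ran from 26.1 to 71.4 in the 12 knockout libraries and from 41.3 to 78.4 in the 12 others, so its total count does not check the knockout. Kit (1483 to 2414) and Cd34 (1153 to 2457) were high in all 24 libraries, while Ly6a, which encodes Sca-1, was low throughout (11.7 to 45.9). In bulk samples such as these, fewer cells of a type and less RNA per cell cannot be told apart.

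Before S phase, the origin recognition complex marks the start sites of replication, and Cdc6 and Cdt1 load the ring-shaped MCM helicase there. Cdc45 and the GINS complex then turn the loaded ring into an active helicase, primase and the polymerases copy the strands, and the clamp, its loader and the joining enzymes complete them. Blood stem cells are mostly quiescent, and many of these genes are induced by E2F transcription factors when cells enter the cycle. Interferon and poly(I:C) are known to drive quiescent blood stem cells into division.

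The promoters of these genes are shown first, because E2F control is the best known regulatory feature that they share. RefSeq promoter windows on GRCm38.p6, from 250 bases before to 50 bases after each start, were matched for 35 of the 43 genes, which gave 41 windows. An E2F octamer (TTTCCCGC, TTTCGCGC, TTTGCCGC or TTTGGCGC, on either strand) was present in 31.7% of the member windows and in 2.26% of all 32851 windows. A CCAAT box, on either strand, was present in 63.4% and 37.4% of them. The windows below are those of Mcm6, Mcm3, Orc1, Cdt1 and Pola1, which contain the octamer, and of Rrm2, the gene with the largest difference under poly(I:C), which does not. Capitals mark octamers and CCAAT boxes, and no octamer overlaps a CCAAT box in these windows. In Mcm6 a pair of octamers on opposite strands overlaps within the first capital run. Each is written along the strand of its gene.
Mcm6: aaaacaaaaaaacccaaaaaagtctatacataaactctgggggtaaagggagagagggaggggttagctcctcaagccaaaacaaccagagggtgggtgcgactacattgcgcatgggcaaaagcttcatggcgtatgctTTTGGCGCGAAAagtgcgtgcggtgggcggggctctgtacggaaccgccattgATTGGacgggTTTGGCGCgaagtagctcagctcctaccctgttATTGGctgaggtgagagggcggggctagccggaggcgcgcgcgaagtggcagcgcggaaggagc
Mcm3: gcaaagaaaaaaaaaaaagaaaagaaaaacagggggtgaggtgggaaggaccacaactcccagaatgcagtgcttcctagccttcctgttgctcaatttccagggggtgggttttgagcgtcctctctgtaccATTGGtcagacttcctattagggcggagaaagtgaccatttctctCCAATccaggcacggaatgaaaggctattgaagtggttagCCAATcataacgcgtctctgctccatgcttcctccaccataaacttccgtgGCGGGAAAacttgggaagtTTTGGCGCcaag
Orc1: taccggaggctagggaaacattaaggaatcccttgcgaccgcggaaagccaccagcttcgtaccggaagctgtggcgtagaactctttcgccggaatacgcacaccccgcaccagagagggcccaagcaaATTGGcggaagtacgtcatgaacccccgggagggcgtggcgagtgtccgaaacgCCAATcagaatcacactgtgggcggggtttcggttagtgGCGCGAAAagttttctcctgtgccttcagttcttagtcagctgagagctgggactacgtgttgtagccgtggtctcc
Cdt1: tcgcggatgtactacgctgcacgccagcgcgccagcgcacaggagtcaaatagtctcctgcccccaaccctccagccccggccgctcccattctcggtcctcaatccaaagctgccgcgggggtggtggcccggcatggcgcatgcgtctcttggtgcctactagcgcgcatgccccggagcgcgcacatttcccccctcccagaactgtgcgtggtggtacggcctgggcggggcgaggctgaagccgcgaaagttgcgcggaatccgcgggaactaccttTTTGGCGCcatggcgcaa
Pola1: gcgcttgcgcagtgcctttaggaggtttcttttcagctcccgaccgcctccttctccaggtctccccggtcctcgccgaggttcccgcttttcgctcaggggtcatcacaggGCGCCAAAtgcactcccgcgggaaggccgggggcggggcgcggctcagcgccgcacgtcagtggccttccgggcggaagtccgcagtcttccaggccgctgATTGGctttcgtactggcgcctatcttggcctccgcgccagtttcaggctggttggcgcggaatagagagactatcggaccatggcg
Rrm2: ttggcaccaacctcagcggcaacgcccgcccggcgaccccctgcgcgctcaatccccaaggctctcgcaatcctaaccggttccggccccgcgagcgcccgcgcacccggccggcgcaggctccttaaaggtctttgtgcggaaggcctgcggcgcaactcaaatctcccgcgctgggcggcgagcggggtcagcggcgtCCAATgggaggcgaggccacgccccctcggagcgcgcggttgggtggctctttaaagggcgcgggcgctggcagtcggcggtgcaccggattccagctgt

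The Mcm6 window lies at chr1:128359656-128359955 on the minus strand and the Mcm3 window at chr1:20820263-20820562 on the minus strand. The Orc1 window lies at chr4:108579204-108579503 and the Cdt1 window at chr8:122567765-122568064, both on the plus strand. The Pola1 window lies at chrX:93632106-93632405 on the minus strand and the Rrm2 window at chr12:24708004-24708303 on the plus strand. The octamer was found in 6 of the 19 matched genes that rose under poly(I:C) as described below and in 7 of the 16 matched genes that did not pass. Of the 41 windows, 12 do not hold the start of the gene in the GENCODE annotation. For Fen1, Orc2 and Uhrf1 another window holds it, and the windows of Mcm5 and Rpa1 lie just before it. The windows of Dut, Cdc6, Mcm7 and Lig1 make up the rest of the 12. The Dut window begins 75 bases inside the gene, so the bases just before the annotated start of Dut were not searched. All windows of Cdc6 and Mcm7 also lie inside their genes, so the same holds for them. Cdc6, Mcm7 and Lig1 were counted above as genes with the octamer through such windows. Among the 29 windows that hold the annotated start, 27.6% had the octamer, in 3 of 15 genes that rose and 5 of 14 that did not pass. A match is a run of letters in a window, and neither binding nor use was measured.

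Among the members, levels in WT LSK cells with PBS spanned a wide range when normalised counts were divided by the length of the principal transcript. Mcm6 stood highest at 427 ± 49.5 per kb (SD, n = 4 libraries), followed by Pcna at 336 ± 10.8 and Rrm1 at 239.5 ± 21.9. The other MCM ring genes followed with Mcm7 at 194 ± 31.0, Mcm3 at 189 ± 45.1, Mcm4 at 179 ± 17.3, Mcm2 at 140 ± 39.2 and Mcm5 at 134 ± 38.8 per kb, and neighbours in that order did not differ beyond their spread. The lowest levels per kb were those of Gins2 (10.4 ± 1.59), Gins3 (12.3 ± 1.46) and Orc1 (14.4 ± 2.24). The MCM ring holds its subunits in equal number, and its mRNAs were not equal in level per kb by this measure. For Mcm6 the principal transcript has 2.91 kb and all exons together 4.67 kb, so the values depend on the length chosen. Whether reads covered whole transcripts is not given.

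The first comparison asks what poly(I:C) did to the replication genes across all genotypes. With the poly(I:C) response averaged over the 4 genotypes, 22 of the 43 genes rose and 0 fell, where 11.9% of all genes tested rose and 11.6% fell (limma, Benjamini-Hochberg adjusted p under 0.05 over 12628 genes). The log2 difference was above 0 for 42 of 43 members. Its median was 0.26 for the members, with a range of -0.01 to 0.68, and 0.01 for all genes. At an unadjusted p under 0.05, 27 members passed, as did 37.5% of all genes. The genes that rose belonged to every role except the polymerases and primase, where 0 of 6 passed, although no test compared roles with each other.

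**Figure D1:**
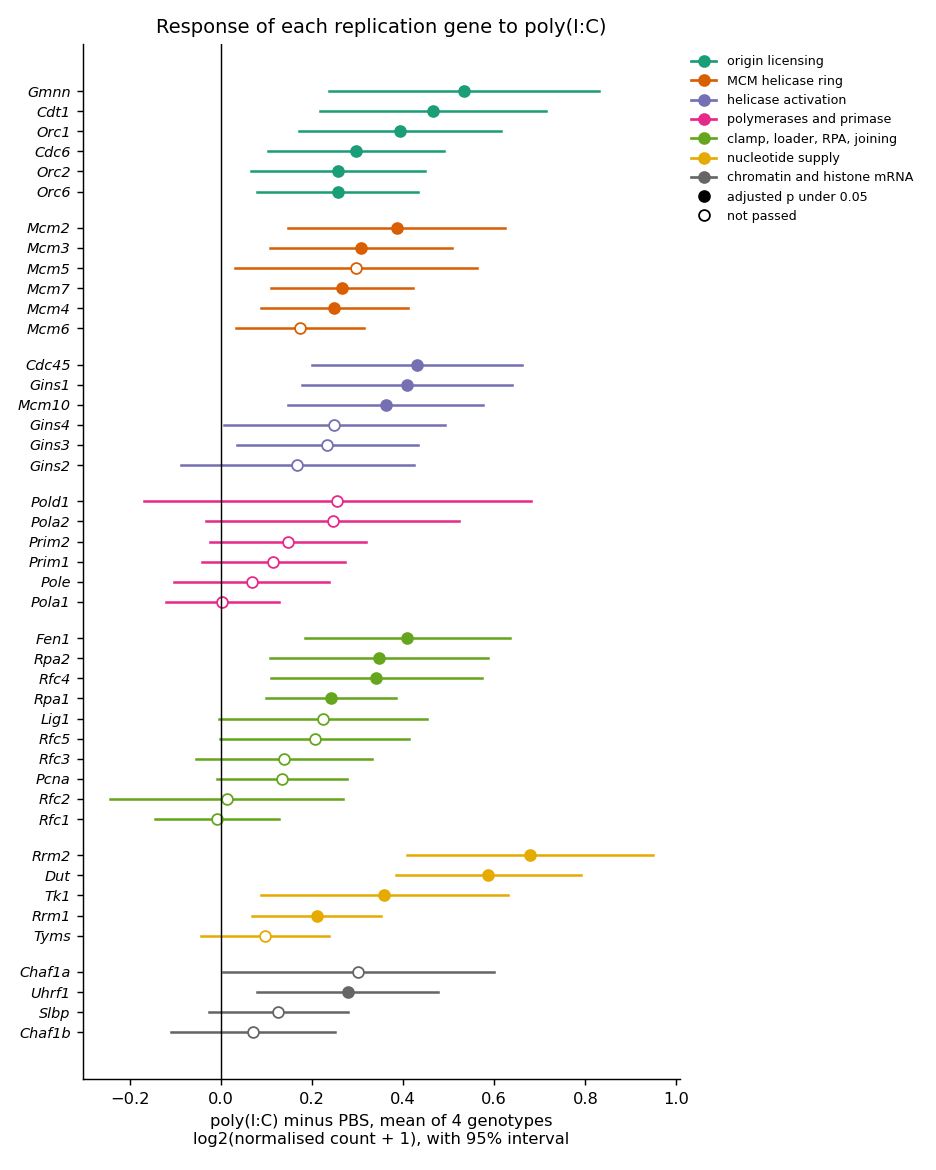
Log2 difference of each of the 43 replication genes between poly(I:C) and PBS, averaged over 4 genotypes, with its 95% interval, on the log2(normalised count + 1) scale; genes are grouped by role and filled points have a limma adjusted p under 0.05. Rrm2 (0.68) and Dut (0.59) lie farthest to the right, all 6 licensing genes are filled, and none of the 6 polymerase and primase genes is.

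Of the 5 nucleotide supply genes 4 rose, and the 2 largest differences of the 43 genes were among them. Dut encodes the dUTPase that keeps uracil out of DNA, and it lies on chromosome 2 at 125247190 to 125258608 of mm10. With poly(I:C), Dut had 289 and 494 normalised counts in FancgKO_Mdm4Tg cells, against 273, 216 and 316 with PBS. In FancgKO cells it had 365, 278 and 366 with poly(I:C), against 271, 235, 282 and 271 with PBS. These groups overlapped in both knockout genotypes. In Mdm4Tg cells Dut had 324 and 395 with poly(I:C), against 201, 222 and 209 with PBS, and in WT cells it had 420, 321 and 463, against 225, 289, 224 and 214. Here every poly(I:C) library stood above every PBS library. The averaged log2 difference was 0.59 ± 0.10 (SE, 10 and 14 libraries), a 1.5-fold change on the log2(normalised count + 1) scale, with a limma adjusted p of 6.89e-04.

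Rrm2, the small subunit of ribonucleotide reductase whose supply limits the enzyme in S phase, had the largest difference of all 43. It lies on chromosome 12 at 24708241 to 24714146. Its normalised counts with poly(I:C) were 244 and 524 in FancgKO_Mdm4Tg cells, against 215, 216 and 245 with PBS, and 415, 263 and 462 in FancgKO cells, against 218, 285, 302 and 206. The groups overlapped in these genotypes, although the highest libraries were poly(I:C) libraries. They were 263 and 366 in Mdm4Tg cells with poly(I:C), against 204, 149 and 211 with PBS, and 345, 277 and 478 in WT cells, against 216, 227, 204 and 206, with no overlap. The log2 difference was 0.68 ± 0.13 (limma adjusted p = 0.0014), or 1.6-fold. Rrm1, the large subunit, differed less, by 0.21 ± 0.07 (adjusted p = 0.0299 with limma), and Tk1, the thymidine salvage kinase, rose as well. Tyms, thymidylate synthase, differed by 0.10 with a 95% interval of -0.04 to 0.24 and did not pass.

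**Figure D2:**
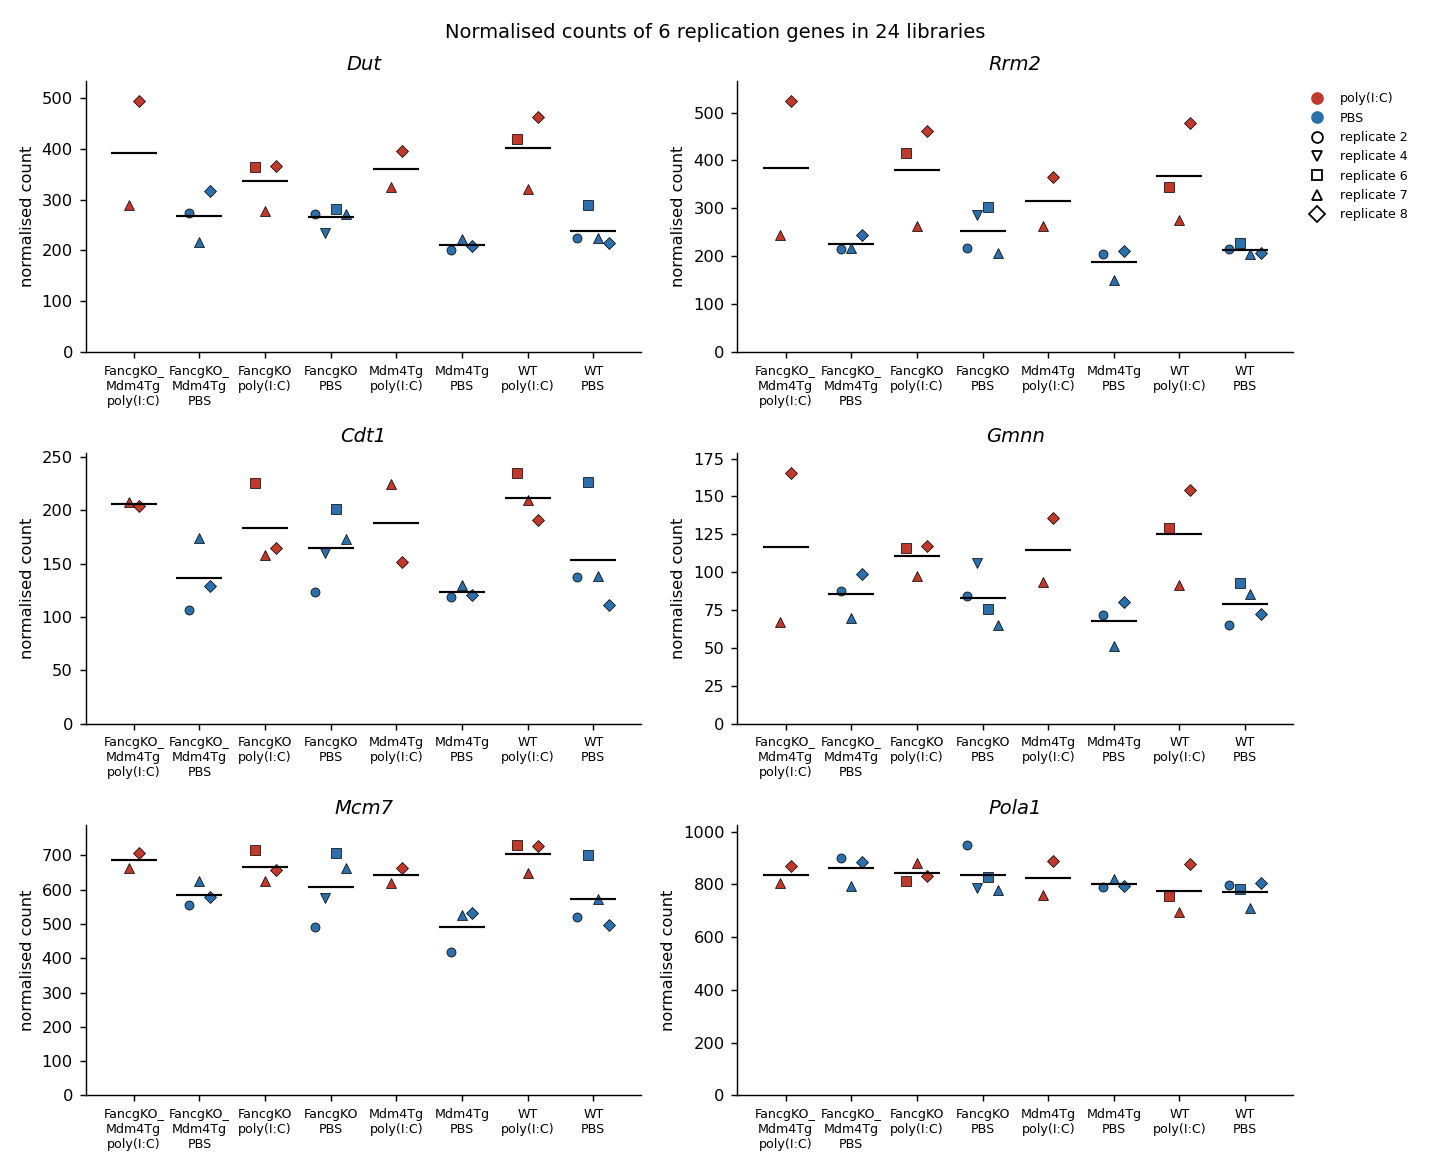
Normalised counts of Dut, Rrm2, Cdt1, Gmnn, Mcm7 and Pola1 in all 24 libraries, by group, with poly(I:C) to the left of PBS in each genotype; each point is a library, its shape gives the replicate number and the bar is the group mean. Dut and Rrm2 stand higher with poly(I:C) in WT and Mdm4Tg cells without overlap, whereas Pola1 lies between 695 and 951 in all libraries.

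All 6 origin licensing genes rose. Cdt1, which brings the MCM ring to the origin, lies on chromosome 8 at 122568015 to 122573554. It had 207 and 204 normalised counts in FancgKO_Mdm4Tg cells with poly(I:C), against 106, 174 and 129 with PBS, and 225, 158 and 165 in FancgKO cells, against 124, 160, 202 and 173. In Mdm4Tg cells the values were 224 and 151 with poly(I:C), against 119, 130 and 121 with PBS, and in WT cells 235, 210.0 and 191, against 137, 227, 139 and 112. The groups overlapped in FancgKO and WT cells, where PBS replicate 6 was the highest PBS library. The averaged difference of Cdt1 was 0.46 ± 0.12 (limma adjusted p = 0.00896).

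Gmnn encodes geminin, the inhibitor that holds Cdt1 in check after origins have fired, and it rose together with its target. It had 67.1 and 166 normalised counts in FancgKO_Mdm4Tg cells with poly(I:C), against 87.5, 69.9 and 98.6 with PBS, and 116, 97.7 and 118 in FancgKO cells, against 84.6, 106, 76.0 and 65.3. In Mdm4Tg cells it had 93.4 and 136 with poly(I:C), against 71.7, 51.1 and 80.5 with PBS, and in WT cells 129, 91.7 and 155, against 64.8, 92.9, 85.3 and 72.4. The lowest poly(I:C) value of each genotype came from replicate 7. The averaged difference was 0.53 ± 0.14 (limma adjusted p = 0.0113). Orc1, the origin recognition subunit whose level varies over the cycle, differed by 0.39 ± 0.11 (adjusted p = 0.0122 with limma). Orc6 had the smallest difference of the group, 0.26 ± 0.09.

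In the MCM helicase ring 4 of 6 genes rose, and the other two had intervals above 0 without passing the adjusted threshold. Mcm7 ran from 620.4 to 731 normalised counts with a median of 663 in the 10 poly(I:C) libraries, and from 418 to 707 with a median of 564 in the 14 PBS libraries. The ranges overlapped, and PBS replicate 6 of FancgKO (707) and of WT (703) were the highest PBS libraries. Its difference was 0.27 ± 0.08 (limma adjusted p = 0.0151). Mcm2 had a larger difference, 0.39 ± 0.12, and a larger spread, with 469 to 653 with poly(I:C) (median 563) and 292 to 611 with PBS (median 401). Mcm4 differed by 0.25 ± 0.08. Mcm6, the most abundant ring gene per kb, had the smallest difference, 0.17 with a 95% interval of 0.03 to 0.31 and a limma adjusted p of 0.0634.

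Of the 6 helicase activation genes 3 rose. Cdc45, which joins the ring and the GINS complex in the active helicase, had 92.3 to 160 normalised counts with poly(I:C) (median 124) and 72.1 to 134 with PBS (median 85.1), with WT PBS replicates 6 and 7 the highest PBS libraries. Its difference was 0.43 ± 0.11 (limma adjusted p = 0.00912). Gins1 had 65.1 to 103 with poly(I:C) (median 80.9) and 48.3 to 87.5 with PBS (median 55.8), a difference of 0.41 ± 0.11 (adjusted p = 0.0122 with limma). Mcm10, a scaffold of helicase activation, differed by 0.36 ± 0.10. Gins2, at low counts of 38.4 to 56.1 with poly(I:C) and 31.3 to 71.9 with PBS, differed by 0.17 with an interval of -0.09 to 0.42.

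None of the 6 polymerase and primase genes passed in this comparison with limma. Pola1, the catalytic subunit of the polymerase that extends the primers and a gene of the X chromosome, had 695 to 890.0 normalised counts with poly(I:C) (median 823) and 709 to 951 with PBS (median 797). Its difference was 0.00 ± 0.06, with a 95% interval of -0.12 to 0.13. Pola2, its accessory subunit, differed by 0.25 with an interval of -0.03 to 0.52, and the primase subunits Prim2 and Prim1 by 0.15 (-0.02 to 0.32) and 0.11 (-0.04 to 0.27). Differences of the size seen in Cdt1 lie outside the intervals of Pola1 and the primase genes and inside that of Pola2.

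The clamp, loader, single-strand binding and joining genes were mixed, with 4 of 10 higher. Fen1, the flap nuclease that trims the joints between lagging-strand fragments, had 180 to 311 normalised counts with poly(I:C) (median 239.7) and 138 to 250 with PBS (median 177). It differed by 0.41 ± 0.11 (limma adjusted p = 0.0108). Rpa1, the large subunit of the single-strand binding complex, differed by 0.24 ± 0.07 and Rfc4, a loader subunit, by 0.34 ± 0.11. Rfc1, the large loader subunit, ran from 363 to 423 with poly(I:C) and from 331 to 454 with PBS, a difference of -0.01 and an interval of -0.14 to 0.13. Among the chromatin and histone mRNA genes, 1 of 4 rose: Uhrf1, which carries DNA methylation to the new strand, had 368 to 487 with poly(I:C) (median 408) and 251 to 451 with PBS (median 343), a difference of 0.28 ± 0.10 (limma adjusted p = 0.0387). Chaf1a, a histone chaperone subunit, differed by 0.30 with an interval of 0.00 to 0.60, Slbp by 0.13 (-0.03 to 0.28) and Chaf1b by 0.07 (-0.11 to 0.25).

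The count of genes that rose depended on which libraries entered. Without FancgKO_Mdm4Tg poly(I:C) replicate 8 it was 7 of 43 (5.95% of all genes rose), without FancgKO poly(I:C) replicate 6 it was 14 (7.95%), and without Mdm4Tg poly(I:C) replicate 8 it was 13 (8.78%). Dut, Rrm2, Cdt1, Mcm7 and Cdc45 passed in all 24 fits that each left out a library, whereas Orc2 and Tk1 passed in 8 of them. Poly(I:C) libraries were also deeper: with all libraries thinned to 807686 reads, 12 members rose (7.21% of all genes) and the median was 0.23. Of the 24 libraries, 6 had Xist above a normalised count of 100. They were replicates 6 and 7 of FancgKO poly(I:C), FancgKO PBS and WT poly(I:C). Among the 18 others the median was 0.28, but poly(I:C) in FancgKO and in WT then rested on replicate 8 alone.

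Replicate number marked a further split. No poly(I:C) library was numbered 2 or 4. The median centred log2 level of the members was -0.31 to -0.13 in the 4 PBS libraries numbered 2. It was -0.33 (WT replicate 8) to 0.15 (FancgKO replicate 6) in the 10 other PBS libraries. For number 2, replicate number and treatment cannot be told apart. Within replicate number 6 (2 genotypes with both treatments) the median log2 difference over the 43 genes was 0.10 with 34 genes higher, within number 7 (4 genotypes) it was 0.17 with 37 higher, and within number 8 (3 genotypes) it was 0.35 with 41 higher. In the 9 pairs of the same genotype and number, between 26 (FancgKO 7) and 41 (WT 8) of the 43 genes were higher with poly(I:C). Mcm4, Gins1, Rrm1, Rrm2, Dut and Uhrf1 were higher in 9 of 9 pairs. Summed over all members, normalised counts were 12969 to 14715 with poly(I:C) and 10276 to 13767 with PBS, and WT and FancgKO replicates 6 were the highest PBS libraries at 13767 and 13570.

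**Figure D3:**
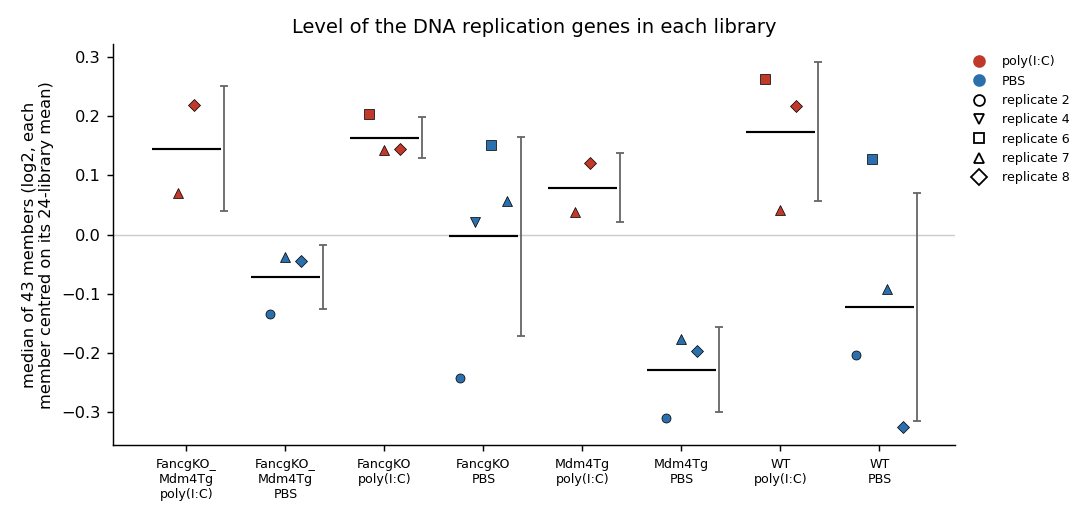
Median over the 43 replication genes in each library, in log2 units, after each gene was centred on its mean over 24 libraries; groups run along the x axis, points are libraries shaped by replicate number, bars are group means and whiskers are SD. All 10 poly(I:C) libraries lie above 0 (0.04 to 0.26), and 4 of the 14 PBS libraries do (replicates 4, 6 and 7 of FancgKO and 6 of WT).

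Other genes moved in the same comparison. All 5 myeloid progenitor markers rose, with a summed normalised count of 5705 to 22390 with poly(I:C) and 1421 to 13542 with PBS, and 5 of 7 stem cell markers fell (344 to 960 against 554 to 1994). Erythroid markers rose in 4 of 5 cases, and 2 of 5 lymphoid markers fell. Kit, a marker of the sort gate, fell by 0.26 on the log2 scale and Ly6a, the other one, differed by -0.20 without passing, while Cd34, a progenitor marker outside the gate, fell by 0.46. Of 12 genes of proliferation, G2 and mitosis 8 rose, among them Plk1 (0.54 ± 0.14) and Aurkb (0.40 ± 0.09), a median of 0.28. Both macrophage markers that passed the filter, of 4 listed, rose, and the sum over all 4 was 82.5 to 203 with poly(I:C) and 28.9 to 228 with PBS. Of 5 neutrophil markers only S100a8 passed the filter, and it rose; the sum over all 5 was 0.834 to 32.2 with poly(I:C) and 0 to 10.0 with PBS. B cell and T cell markers were near 0 in both treatments, at sums of at most 9.72 and 3.81. The part of cell composition in the differences of the replication genes was not tested. A list of 41 further replication genes, also drawn up with earlier results of these data known, had 4 that rose and 1 that fell, with a median of 0.14. Neither share exceeded that of all genes tested (11.9% rose and 11.6% fell). Asf1b, a histone chaperone of the fork, rose by 0.55 ± 0.13 (limma adjusted p = 0.0051), as did Chtf8, Rnaseh2c and Dna2, while Mcm9 fell by 0.30 on the log2 scale.

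The second comparison asks whether the response differed between genotypes. With limma, 0 of 43 genes passed in any genotype taken alone, where 0 genes of all passed in the mutants and 2 in WT (0.0158%). At an unadjusted p under 0.05 the counts of members were 4 in FancgKO_Mdm4Tg (8.57% of all genes), 3 in FancgKO (7.24%), 10 in Mdm4Tg (12.7%) and 12 in WT (14.9%), so the shares in both knockout genotypes were near those of all genes. At the adjusted threshold edgeR also called 0 members in each genotype, as DESeq2 did in the 3 mutant genotypes. Median log2 differences were 0.24 in FancgKO_Mdm4Tg, 0.18 in FancgKO, 0.30 in Mdm4Tg and 0.27 in WT cells, with 41, 39, 42 and 43 of the 43 genes above 0. The FancgKO median was 0.08 without FancgKO PBS replicate 2. The WT median was 0.14 with Xist level as a covariate.

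In WT, where same-numbered libraries deviated together, a fit that blocked on replicate number called 4 members higher, where 3.25% of all genes rose. These were Dut (0.72 ± 0.13, limma adjusted p = 0.0028), Rrm2 (0.73 ± 0.15, adjusted p = 0.0053), Mcm10 (0.49 ± 0.12, adjusted p = 0.0141) and Gmnn (0.64 ± 0.18, adjusted p = 0.0395). DESeq2 called 1 member in WT (0.634% of genes higher), and 3 passed with limma without WT PBS replicate 6 (2% of genes).

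Differences between the responses themselves were tested with an interaction term. The FancgKO response minus the WT response, the Mdm4Tg response minus the WT response and the FancgKO_Mdm4Tg response minus the FancgKO response each gave 0 members and 0 genes with limma, edgeR and DESeq2, and 0 members at an unadjusted p under 0.05 with each tool (1.01%, 0.483% and 0.808% of all genes with limma). The median over the members was -0.09, 0.02 and 0.09. With single libraries left out the first ran from -0.17 (without WT PBS replicate 6) to -0.04 (without WT PBS replicate 8). The second changed sign, from -0.04 (without WT PBS replicate 6) to 0.06 (without Mdm4Tg poly(I:C) replicate 7), and the third ran from 0.02 (without FancgKO poly(I:C) replicate 8) to 0.17 (without FancgKO PBS replicate 2). The FancgKO response minus the WT response was -0.41 ± 0.25 for Dut and -0.47 ± 0.26 for Mcm10, and neither passed. Values for the Mdm4Tg response minus the WT response come from fits without the replicate block, although numbers pair the libraries in that comparison. With the block, 0 of all genes rose in it at the adjusted threshold with limma.

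Every poly(I:C) library stood above every PBS library for 12 members in FancgKO_Mdm4Tg (11.7% of all genes did so), 3 in FancgKO (1.81%), 26 in Mdm4Tg (18.1%) and 7 in WT (5.58%). The 3 in FancgKO were Cdc45, Gins1 and Gins4, and the 7 in WT were Orc1, Mcm10, Prim2, Rfc4, Rrm2, Tk1 and Dut. Over all 10 poly(I:C) and 14 PBS libraries, 0 members separated completely (0.0475% of all genes).

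**Figure D4:**
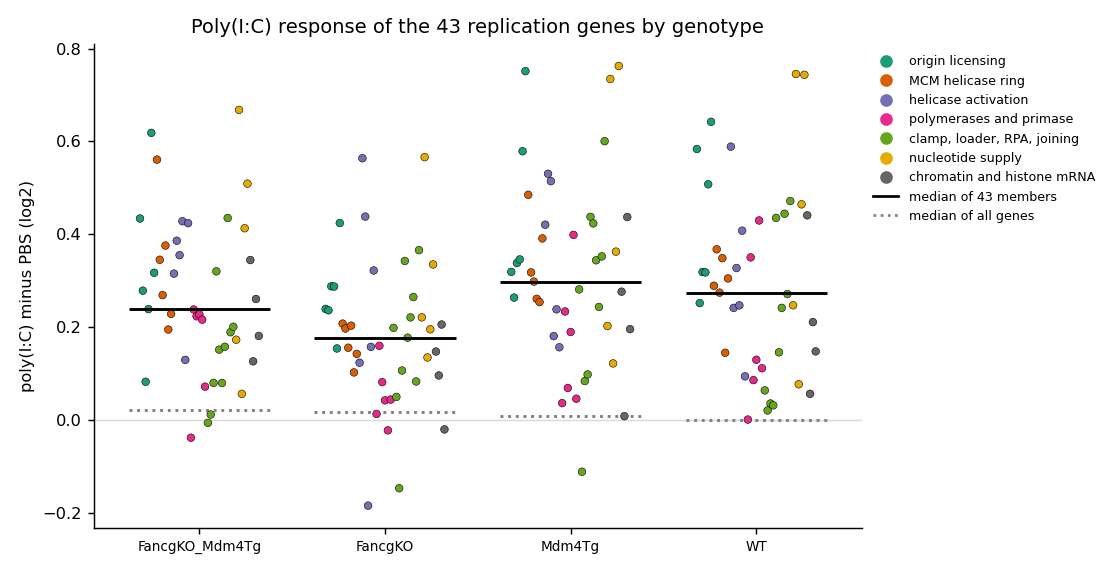
Log2 difference between poly(I:C) and PBS for each of the 43 replication genes within each genotype, coloured by role; the solid bar is the median of the 43 genes and the dotted bar that of all genes tested. Medians lie between 0.18 (FancgKO) and 0.30 (Mdm4Tg), and the nucleotide supply gene Rrm2 is among the highest points in every genotype.

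The remaining comparisons ask whether loss of Fancg or the Mdm4 transgene changed the replication genes. Averaged over treatment and transgene, loss of Fancg changed 0 members with limma, edgeR and DESeq2 (0.0158% of all genes changed with limma). At an unadjusted p under 0.05, 1 member passed with each tool (2.11% of all genes with limma). The median difference was 0.07, and 39 of 43 values were above 0. Both come from the fit without the replicate block, although numbers pair the libraries in this comparison. Gins3, a GINS subunit, had the smallest p: with PBS it had 37.1, 41.4 and 47.6 normalised counts in FancgKO_Mdm4Tg cells and 36.0, 42.8, 45.3 and 39.2 in FancgKO cells, against 31.4, 31.4 and 32.7 in Mdm4Tg cells and 30.5, 28.3, 28.4 and 36.2 in WT cells. Each PBS knockout value exceeded each PBS value of Mdm4Tg or WT except for FancgKO replicate 2, which lay below WT replicate 8. With poly(I:C) it had 47.9 and 43.9 in FancgKO_Mdm4Tg cells and 43.4, 48.8 and 44.4 in FancgKO cells, against 35.02 and 40.6 in Mdm4Tg cells and 44.5, 35.5 and 43.8 in WT cells, and here FancgKO and WT overlapped. Its averaged difference was 0.30 ± 0.10 (limma adjusted p = 1). Rfc5 and Rfc4, subunits of the clamp loader, followed at 0.17 ± 0.10 and 0.19 ± 0.11. The difference of Rfc4 was 0.08 without FancgKO_Mdm4Tg poly(I:C) replicate 8 and 0.29 without replicate 7 of the same group.

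Within PBS, FancgKO against WT gave 0 members (0% of all genes), 2 at an unadjusted p under 0.05 with limma (3.94% of all genes) and 0 with edgeR or DESeq2, and a median of 0.09. The median was 0.03 without WT PBS replicate 8 and 0.17 without FancgKO PBS replicate 2. With poly(I:C), it gave 0 members (0% of all genes) and 0 at an unadjusted p under 0.05 with limma (0.364% of all genes), edgeR and DESeq2, and a median of 0.00, which ran from -0.05 (without WT poly(I:C) replicate 7) to 0.03 (without WT poly(I:C) replicate 6). For Dut with poly(I:C) the difference was -0.25 ± 0.19. The values with PBS and with poly(I:C) come from fits without the replicate block, although numbers pair the libraries in both comparisons. With PBS, FancgKO replicates 6 and 7 had Xist at 7800 and 18007, and the WT libraries had at most 24.8. Xist level and loss of Fancg are therefore partly confounded with PBS.

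The transgene averaged over Fancg status and treatment also changed 0 members with all 3 tools (0.00792% of all genes with limma), and 1 passed at an unadjusted p under 0.05 (2.57% of all genes). The median was -0.07 and 36 of 43 values were below 0, but with the replicate block, in a comparison whose numbers pair the libraries, the median was -0.01 and 16 were above 0. Mcm2 had the smallest p, with a difference of -0.24 ± 0.12 (limma adjusted p = 0.953), followed by Lig1, the ligase of the lagging strand, at -0.21 ± 0.11 and Rfc5 at -0.18 ± 0.10. With PBS, Mcm2 had 292, 467 and 343 normalised counts in FancgKO_Mdm4Tg cells, against 354, 471, 554 and 611 in FancgKO cells. It had 316, 395 and 394 in Mdm4Tg cells, against 408, 608, 555 and 321 in WT cells. The groups overlapped in both settings. The 6 libraries with Xist above 100 all lacked the transgene, so Xist level and the transgene are partly confounded. The Lig1 difference changed sign with Xist level as a covariate.

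Within PBS, 0 members passed with limma, edgeR or DESeq2 for FancgKO_Mdm4Tg against FancgKO, for Mdm4Tg against WT and for FancgKO_Mdm4Tg against WT (0.00792% of all genes each with limma). At an unadjusted p under 0.05 limma had 1 member in each (4.47%, 2.51% and 2.53% of all genes). Medians were -0.06, -0.11 and 0.00. With single libraries left out the first ran from -0.14 (without FancgKO PBS replicate 2) to -0.03 (without FancgKO PBS replicate 6). Without WT PBS replicates 8 and 6 in turn, the second was -0.17 and -0.02 and the third -0.05 and 0.08. These comparisons share their FancgKO or WT libraries, so their values are not independent of each other. They were fitted without the replicate block, although numbers pair the libraries in both comparisons with WT.

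**Figure D5:**
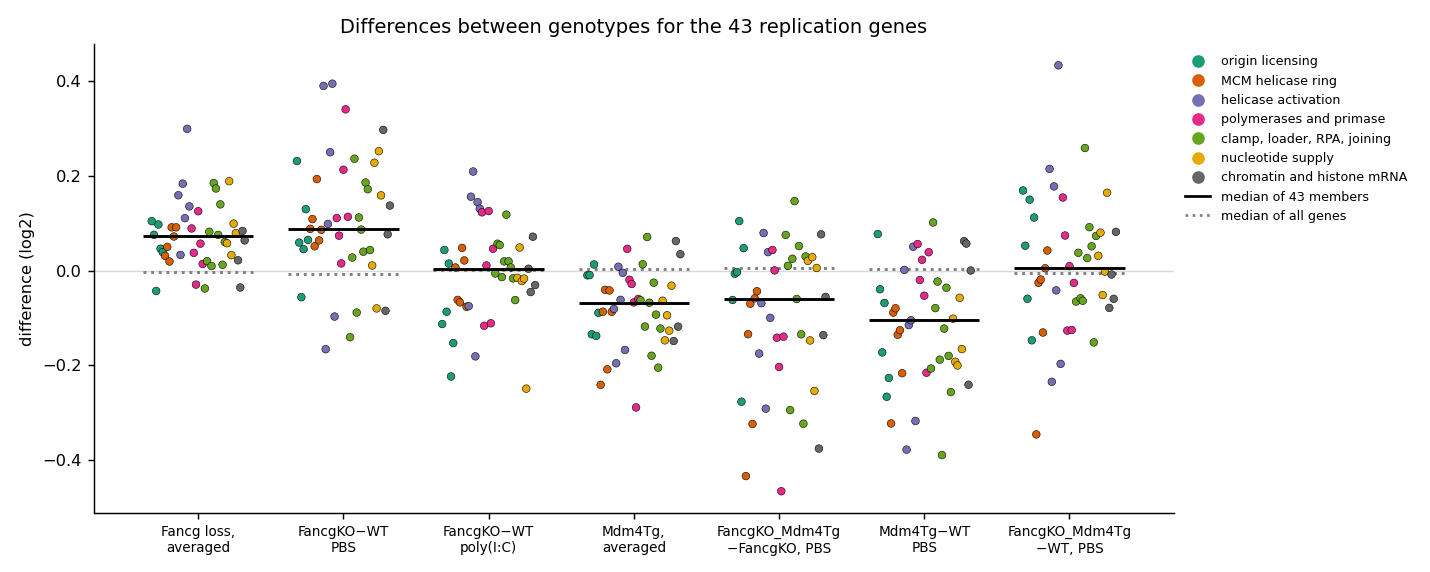
Log2 difference of each of the 43 replication genes in 7 comparisons between genotypes, coloured by role; the solid bar is the median of the 43 genes and the dotted bar that of all genes tested. Medians lie between -0.11 (Mdm4Tg minus WT with PBS) and 0.09 (FancgKO minus WT with PBS), and none of the 43 genes passed the adjusted threshold in any of them.

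In the annotation, 16 members share exon sequence with another annotated gene, 15 of them with a gene on the other strand, among them Cdc45 (Ufd1), Mcm7 (Cops6 and Ap4m1) and Fen1 (Tmem258). Whether the counting used strand is not stated, so reads of such a pair cannot be told apart here. Pcna and Tyms have named pseudogenes that could share their reads.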

How the data were processed

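RNA with poly(A) tails from LSK cells was made into 24 libraries in 8 groups, named here by genotype, treatment and the replicate number in the sample titles. The deposited table holds 1 signal value per gene and library, a normalised count made by the authors, per the file headers. STAR and mm10 are named per the submitters' processing notes. The counter, the normalisation tool, strand use and any molecular identifiers are not given in the sources used here. Values within a column were whole multiples of the smallest, so reads were recovered: 100% came out whole within 1e-06 of the value. Libraries held 807686 to 8229715 such reads, with a median of 2583130.

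For 12628 genes, log2(normalised count + 1) entered a limma model (version 3.58.1, R 4.3.3) of 8 groups, with its trend option, 15 contrasts and Benjamini-Hochberg adjustment at 0.05. Averaged contrasts weight genotypes or strata equally. On the recovered reads, a count test was run with edgeR 4.0.16 (quasi-likelihood) and DESeq2 1.42.0, which called 23 members higher in the averaged poly(I:C) comparison with either tool. The fits were tested on simulated data. Genes were named from GENCODE (GRCm38), promoters came from RefSeq, and tables and plots were made with python 3.11.15, pandas 2.3.3, numpy 2.4.6 and matplotlib 3.10.9.

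Members named in the text are, per role, the 3 smallest p-values and the smallest absolute difference of the averaged poly(I:C) comparison, and the 3 smallest p-values of each averaged genotype comparison. Orc2, Tk1, Gins4 and those in counts of pairs, of left-out libraries or of separated groups were chosen after their values were seen. The members, the lists and the rule were chosen with earlier results of these data known.

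Replicate numbers were taken as pairs where at least 3 pairs of libraries shared a number and all correlated above 0.1 after group means were removed. This held for poly(I:C) in WT (0.231 to 0.448), Fancg loss averaged (0.172 to 0.617), FancgKO against WT with PBS (0.218 to 0.528) and poly(I:C) (0.392 to 0.617), the transgene averaged (0.256 to 0.647), Mdm4Tg against WT (0.293 to 0.378), FancgKO_Mdm4Tg against WT (0.248 to 0.389) and the Mdm4Tg minus WT response (0.231 to 0.448). Alternatives were other pseudocounts, filters and scalings, no trend, the replicate block, an Xist covariate, edgeR, DESeq2 and leaving out each library. Thinning and the restriction to libraries with low Xist were chosen after seeing the data.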

Additional observations from a re-analysis of the deposited data

Results flagged for a closer look

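In groups of 4 libraries, the highest and lowest values of each member named by the rule above were checked against Dixon's 95% critical value. Of 62 groups tested 2 stood out, where chance gives about 1 in 20. The WT PBS library of replicate 6 had 289.3 normalised counts of Dut, against 214.1 to 225.1 in the other 3 WT PBS libraries. The same library had 1087 normalised counts of Rrm1, against 906.4 to 928.8 in the others.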

How the results depend on the processing

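In the averaged poly(I:C) comparison, 13 members rose with no filter on low values (4.63% of 26267 genes tested rose). After thinning 12 rose (7.21%), against 22 in the fit reported. With no filter, 26267 genes entered the adjustment, and for thinning the cause was not tested. With each library left out in turn the count ran from 7 to 24, and the highest came without WT PBS replicate 6 (14.4% of genes rose). The count was 23 with the replicate block (16% of genes), edgeR (14.4%) or DESeq2 (13.9%). The median of the 43 members lay between 0.20 (replicate block) and 0.28 over all settings.

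In WT, 4 members passed with the replicate block, 1 with DESeq2 and 0 to 3 with each library left out. In Mdm4Tg, where only 2 pairs share numbers, 3 passed with the replicate block (288 of 12628 genes rose). The block changed no other count of members by more than 1.5 times. Rfc1 changed sign with TMM (0.0017), edgeR (0.0011) and low Xist (0.036), and between -0.031 and 0.016 with libraries left out. Pola1 ran from -0.025 to 0.031 with libraries left out. For Lig1, the transgene difference was 0.025 with the Xist covariate and 0.023 in libraries with low Xist. The cause was not tested. Groups of 2 to 4 libraries and a lowest depth of 807686 reads limit the genes at low counts, such as Gins2 and Gins3.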
